A study of Homo sapiens with 6 samples.

Results

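The genes described are 9 regulators of mRNA decay: the AU-rich element binding proteins ZFP36, ZFP36L1 and ZFP36L2, the endonuclease gene ZC3H12A (Regnase-1), and the deadenylation cofactors BTG1, BTG2, BTG3, TOB1 and TOB2. They were chosen by name with earlier results of these data known, so counts of them are a description and not a blind test. All 9 were listed in every library, and they are 9 of the 11048 gene symbols in the deposited table. MM1.S, a human multiple myeloma cell line, was grown for 6 h with the DMSO vehicle, with 3 µM CCF642 or with 3 µM of its analogue CCF642-34, both made as inhibitors of the protein disulfide isomerase PDIA1. The study asked how gene expression under the analogue differs from that under the parent compound. Each group had 2 libraries of polyA RNA, and no label says whether they came from separate cultures, so the p values measure only the spread between libraries, which may be technical. The groups were otherwise treated alike, and all of them are a single cell line at a single time and dose.

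The amount of an mRNA depends on how fast it is made and on how fast it is destroyed, and the proteins of these genes act on the second step. Most mRNAs are first shortened at their poly(A) tail by the CCR4-NOT deadenylase and are then decapped and degraded. ZFP36 proteins bind AU-rich elements in the 3′ untranslated region (UTR) and bring in CCR4-NOT, BTG and TOB proteins bind its CAF1 subunit, and Regnase-1 cuts stem-loops of inflammatory mRNAs. In blood cells many of these genes are known as rapidly induced early genes whose own mRNAs are short-lived.

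The AU-rich element is shown first because ZFP36 proteins bind it and only some of the members carry it. The nonamer TTATTTATT, written with T for U, was searched in the 3′ UTR of the longest coding transcript of each gene in GENCODE release 29, and occurred once in each of the 3 ZFP36 genes and in none of the other 6 members. Of the 10881 listed genes with such a transcript, 9.38% held it. These sites are printed with the 10 bases on either side and with the nonamer in capitals:
ZFP36: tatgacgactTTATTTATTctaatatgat
ZFP36L1: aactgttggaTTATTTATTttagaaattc
ZFP36L2: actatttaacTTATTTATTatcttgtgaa
In GRCh38, ZFP36 lies at chr19:39406813-39409412 on the + strand, ZFP36L1 at chr14:68787660-68796253 on the - strand and ZFP36L2 at chr2:43222402-43226609 on the - strand. The nonamers start at positions 510, 1441 and 856 of the 3′ UTRs, which are 716, 1874 and 1920 bases long. The shorter pentamer ATTTA, which 74.0% of these genes hold, occurred in 8 members and was not found in the 771 bases of ZC3H12A. A match is a description of the transcript and not a measured binding site.

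Promoters of ZFP36 and ZFP36L1, which rose most with both compounds, and of ZC3H12A, which the compounds moved in opposite directions, are printed from RefSeq (GRCh38.p14), from 250 bases before to 50 bases after the start. The RefSeq table matched 8 of the 9 members, without ZFP36L2, and gave ZFP36L1 and TOB1 more than 1 start. Capitals mark TGACG, the core of the cyclic AMP response element (CRE), on either strand, and the full CRE is TGACGTCA. The first window is chr19:39406597-39406896 on the + strand, the second is the later of the ZFP36L1 starts at chr14:68793367-68793666 on the - strand, and the third is chr1:37474330-37474629 on the + strand:
ZFP36: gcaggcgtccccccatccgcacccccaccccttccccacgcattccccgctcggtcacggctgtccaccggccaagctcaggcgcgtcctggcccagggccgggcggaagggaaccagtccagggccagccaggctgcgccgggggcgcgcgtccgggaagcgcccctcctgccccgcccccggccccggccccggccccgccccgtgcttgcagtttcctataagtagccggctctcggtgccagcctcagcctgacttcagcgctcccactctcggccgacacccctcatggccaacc
ZFP36L1: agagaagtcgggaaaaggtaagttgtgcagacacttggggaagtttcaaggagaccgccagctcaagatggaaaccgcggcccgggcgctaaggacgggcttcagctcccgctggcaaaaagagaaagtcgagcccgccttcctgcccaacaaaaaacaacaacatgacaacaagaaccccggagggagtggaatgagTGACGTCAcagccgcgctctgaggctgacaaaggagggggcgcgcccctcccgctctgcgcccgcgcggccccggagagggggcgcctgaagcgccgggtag
ZC3H12A: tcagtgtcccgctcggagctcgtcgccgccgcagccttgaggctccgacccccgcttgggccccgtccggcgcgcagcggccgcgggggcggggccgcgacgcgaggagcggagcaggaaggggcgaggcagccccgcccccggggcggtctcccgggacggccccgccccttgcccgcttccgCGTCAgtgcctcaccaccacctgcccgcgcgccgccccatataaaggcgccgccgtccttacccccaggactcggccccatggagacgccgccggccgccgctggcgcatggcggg
A member was counted if any of its starts held a motif, whereas the shares are of single promoters. The full CRE was found in 1 member, ZFP36L1, and in 2.80% of the 13061 promoters of listed genes. It lay 52 bases before the printed ZFP36L1 start and was not found at the other start of this gene. The core, which the full element holds on both strands, was found in 5 members (ZFP36L1, ZC3H12A, BTG1, BTG2 and TOB1) and in 32.0% of the promoters, and not in ZFP36, BTG3 or TOB2. On either strand, 0 members held the AP-1 motif TGANTCA (5.08% of promoters), the ATF4 motif TGATGNAA (2.01%), the CArG box (1.09%) or the NF-kB motif (6.68%). TATAAA occurred in ZC3H12A and BTG1, and in 6.05% of the promoters. These windows cover 300 bases and say nothing of elements outside them.

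The values are CPM, the reads of a gene scaled to the same total in every library, as the authors deposited them. Totals ranged from 20567313 to 28459677 reads, and each member value rested on 1054 to 14359 reads, so that counting error was at most 3.08% of a value. The replicates of a group differed by a coefficient of variation between 0.213% and 12.9%, with a median of 2.37%. Tests were made with limma on log2(CPM + 1) after scaling by edgeR's trimmed mean of M-values (TMM), and a gene was called at a Benjamini-Hochberg adjusted p under 0.05 over all 11048 genes. The background was high. With CCF642, 31.8% of all genes were called higher and 31.3% lower than with DMSO, and under CCF642-34, 29.7% were higher and 27.9% lower. Called and at least 2-fold changed were 6.49% under CCF642 and 3.88% under CCF642-34. Scaling to library size alone put the median log2 change of the 11048 genes at −0.13 for CCF642 and −0.078 for CCF642-34, and lowered the share of higher genes among the called ones from 50.4% to 34.8% under CCF642 and from 51.6% to 38.6% under CCF642-34. The 10 plasma cell markers checked (SDC1, IRF4, PRDM1 and others) were all listed. Their summed level was 9904 to 10003 CPM with DMSO, 7020 to 7054 CPM under CCF642 and 7866 to 7911 CPM under CCF642-34, and its part in the results was not tested. JCHAIN weighs most in this sum, which does not show that each marker fell. Over the 6 libraries, JCHAIN ranged from 1792 to 4321 CPM, SDC1 from 239 to 870, IRF4 from 657 to 1358 and TNFRSF17 from 71.2 to 170. Ranges were narrower for MZB1 (606 to 867 CPM), POU2AF1 (425 to 619), CD38 (27.5 to 38.1) and SLAMF7 (672 to 800). XBP1 ranged from 1311 to 1391 CPM and PRDM1 from 398 to 471 CPM. All libraries are of a single cell line, and a lower level in all cells and in only some of them cannot be told apart in bulk samples. Of 17 markers of mature B, T, myeloid and erythroid cells, 4 were listed. These were CR2 (24.8 to 31.8 CPM), CD68 (9.87 to 13.4), HBB (2.21 to 4.86) and CD3E (2.09 to 3.19). The B cell marker CR2 was thus near the level of CD38. The others, among them MS4A1, CD3D, CD14 and LYZ, were not listed.

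With CCF642, 6 of the 9 members were higher than with DMSO (ZFP36, ZFP36L1, ZFP36L2, ZC3H12A, BTG1 and BTG3), 1 was lower (BTG2) and TOB1 and TOB2 did not pass. With CCF642-34, all 9 passed: ZFP36, ZFP36L1, BTG1 and BTG3 were higher, and ZFP36L2, ZC3H12A, BTG2, TOB1 and TOB2 were lower. Of all genes, 31.8% were called higher and 31.3% lower under CCF642, and 29.7% higher and 27.9% lower under CCF642-34. The members changed at least 2-fold were ZFP36 and ZFP36L1 with both compounds. Such changes were called in 6.49% of all genes under CCF642 and in 3.88% under CCF642-34. The median log2 fold change of the 9 genes was 0.45 under CCF642 and −0.20 under CCF642-34, where the medians of all genes were −0.0068 and 0.0062. Both comparisons use the same DMSO libraries.

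**Figure D1:**
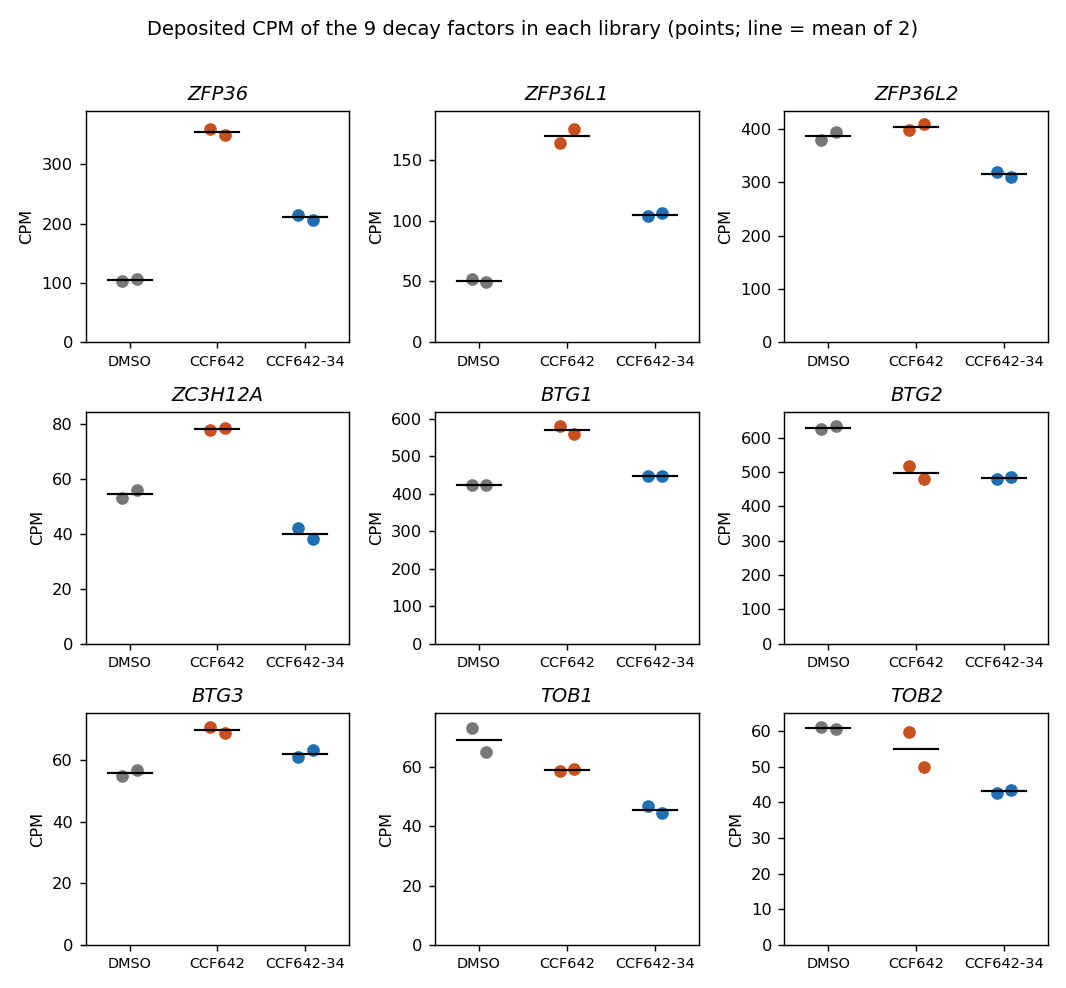
Deposited CPM (y axis, from 0) of each of the 9 genes in the 2 libraries of each group (x axis); points are libraries and the line is their mean. ZFP36 and ZFP36L1 stand above DMSO with both compounds, while ZC3H12A is above DMSO under CCF642 (77.6 and 78.3 CPM) and below it under CCF642-34 (41.9 and 38.0 CPM).

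ZFP36 encodes tristetraprolin, which hastens the decay of mRNAs with AU-rich elements, such as that of TNF, and also binds its own mRNA. It was at 104 and 106 CPM in the DMSO libraries, at 359 and 349 CPM under CCF642 and at 215 and 206 CPM under CCF642-34. The 3 groups did not overlap, with the CCF642 libraries highest and the DMSO libraries lowest. The rise was 3.67-fold under CCF642 (log2 fold change 1.88, SE 0.045, limma adjusted p = 1.12e-35) and 2.12-fold under CCF642-34 (1.08, limma adjusted p = 1.30e-25). Of all genes, 0.878% changed more than ZFP36 in either direction under CCF642, and 3.00% under CCF642-34. With scaling to library size alone the change under CCF642-34 was 0.99 (log2), just under 2-fold.

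ZFP36L1, a paralogue that acts on similar mRNAs and is needed in B cell and plasma cell development, had a lower CPM than ZFP36 in DMSO but nearly the same changes. It was at 51.9 and 49.2 CPM with DMSO, 164 and 175 CPM under CCF642 and 104 and 106 CPM under CCF642-34. Again the groups did not overlap and stood in the same order. The log2 fold change was 1.86 under CCF642 (SE 0.055, limma adjusted p = 8.20e-32) and 1.13 under CCF642-34 (limma adjusted p = 8.52e-23). Fits that each left out 1 library gave 1.80 to 1.91 under CCF642 and 1.09 to 1.16 under CCF642-34.

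ZFP36L2, the third human member of the family, did not follow its paralogues. It was at 379 and 394 CPM with DMSO, 398 and 409 CPM under CCF642 and 320 and 310 CPM under CCF642-34. The CCF642-34 libraries were lowest, and the CCF642 libraries lay just above those of DMSO without overlap. Its log2 fold change was 0.20 under CCF642 (SE 0.041, limma adjusted p = 4.32e-05) and −0.20 under CCF642-34 (limma adjusted p = 3.07e-05). The increase under CCF642 depended on scaling, since with library size alone it was 0.063 (limma adjusted p = 0.162), while the decrease under CCF642-34 was −0.29. So in the 3 genes that share the AU-rich nonamer, ZFP36 and ZFP36L1 rose with both compounds and ZFP36L2 fell under CCF642-34.

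ZC3H12A encodes Regnase-1, an endonuclease that cuts mRNAs such as those of IL6 and of its own gene and that restrains NF-kB driven inflammation. Its libraries were at 53.1 and 55.8 CPM with DMSO, 77.6 and 78.3 CPM under CCF642 and 41.9 and 38.0 CPM under CCF642-34. All CCF642 values lay above and all CCF642-34 values below those of DMSO. The log2 fold change was 0.64 under CCF642 (SE 0.067, limma adjusted p = 1.26e-11) and −0.35 under CCF642-34 (SE 0.067, limma adjusted p = 1.39e-05). Both directions held in every fit that left out a library, from 0.60 to 0.68 under CCF642 and from −0.43 to −0.28 under CCF642-34. Of the 9 members, 2 (ZC3H12A and ZFP36L2) were called in opposite directions with the compounds, and the sizes of ZC3H12A were the larger.

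BTG1 and BTG2 encode small antiproliferative proteins that bind the CAF1 deadenylase and are often mutated in B cell lymphoma, and BTG2 is a target of p53. BTG1 was at 422 and 424 CPM with DMSO, 581 and 560 CPM under CCF642 and 446 and 448 CPM under CCF642-34. It rose by a log2 fold change of 0.56 under CCF642 (SE 0.038, limma adjusted p = 8.85e-18) and by 0.17 under CCF642-34 (limma adjusted p = 0.00019). The smaller change was 0.079 with library size alone and then did not pass (limma adjusted p = 0.0678). BTG2 went the other way, from 625 and 635 CPM with DMSO to 517 and 480 CPM under CCF642 and 479 and 487 CPM under CCF642-34. Every treated library was below both DMSO libraries, and those of the compounds overlapped in CPM but not after TMM scaling. Its log2 fold change was −0.20 under CCF642 (SE 0.039, limma adjusted p = 1.27e-05) and −0.29 under CCF642-34 (limma adjusted p = 9.27e-09).

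BTG3, a more distant member of the family, had a lower level. It was at 54.8 and 56.9 CPM with DMSO, 70.9 and 68.8 CPM under CCF642 and 60.9 and 63.5 CPM under CCF642-34. The groups did not overlap, and both treated groups were above DMSO. It rose by a log2 fold change of 0.45 under CCF642 (SE 0.063, limma adjusted p = 2.21e-08) and by 0.24 under CCF642-34 (limma adjusted p = 0.000965).

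TOB1 and TOB2 encode larger proteins of the same family that bind both CAF1 and the poly(A) binding protein. TOB1 was at 73.1 and 65.2 CPM with DMSO, 58.8 and 59.4 CPM under CCF642 and 46.9 and 44.4 CPM under CCF642-34. TOB2 was at 61.0 and 60.7 CPM with DMSO, 59.9 and 49.9 CPM under CCF642 and 42.7 and 43.4 CPM under CCF642-34. In both genes the CCF642-34 libraries were lowest and did not overlap any other library. With CCF642-34 the log2 fold change was −0.50 for TOB1 (SE 0.067, limma adjusted p = 1.23e-08) and −0.40 for TOB2 (SE 0.071, limma adjusted p = 4.09e-06). With CCF642 it was −0.088 for TOB1 (95% interval −0.22 to 0.047, limma adjusted p = 0.255) and −0.021 for TOB2 (95% interval −0.16 to 0.12, limma adjusted p = 0.814). Although the deposited CPM of the CCF642 libraries lay below those of DMSO in both genes, the values overlapped after TMM scaling. With library size alone TOB1 was called lower under CCF642 (−0.22, limma adjusted p = 0.00386). Under CCF642 both values moved with single libraries and did not pass in any of these fits. TOB1 was at −0.0071 without DMSO replicate 1 and −0.17 without DMSO replicate 2, and TOB2 was at 0.10 without CCF642 replicate 2 and −0.15 without CCF642 replicate 1.

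**Figure D2:**
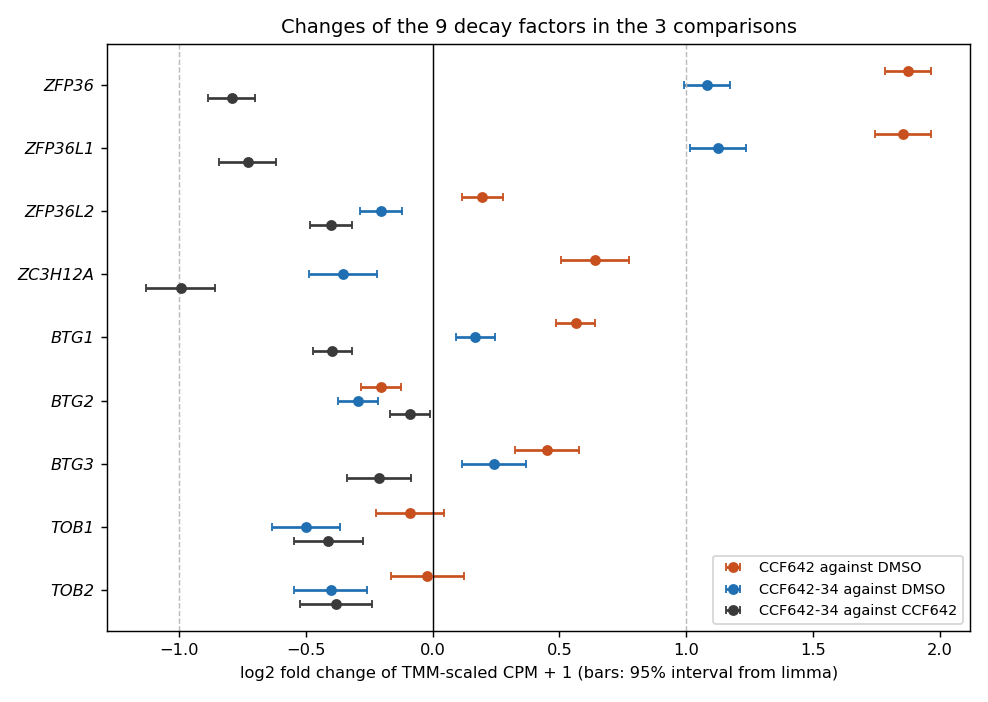
Log2 fold change (x axis) of each gene (y axis) in the 3 comparisons, with 95% intervals from limma as bars; the dashed lines mark 2-fold. The orange and blue points of ZFP36L2 and ZC3H12A lie on opposite sides of 0, and the points of CCF642-34 against CCF642 lie below 0 for all 9 genes.

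Compared directly at the same dose and time, 8 of the 9 members were lower under CCF642-34 than under CCF642 and 0 were higher, where 17.5% of all genes were called lower and 15.9% higher. This is a single pair of compounds, and the p values were adjusted over all genes. With library size alone the share of higher genes among the called ones went from 47.7% to 61.8%, and 8 members were still lower. A gene-wise linear model, which shares no variance between genes, called 5 members lower, without BTG3, TOB1 and TOB2 (adjusted p = 0.0715, 0.0819 and 0.133). ZC3H12A differed most, by a log2 fold change of −0.99 (SE 0.067, 95% interval −1.13 to −0.86, limma adjusted p = 7.55e-17), and 0.317% of all genes differed more in either direction. ZFP36 followed with −0.79 (95% interval −0.88 to −0.70, limma adjusted p = 1.82e-19) and ZFP36L1 with −0.73 (95% interval −0.84 to −0.62, limma adjusted p = 4.71e-15). TOB1 (−0.41), ZFP36L2 (−0.40), BTG1 (−0.40) and TOB2 (−0.38) formed a second group of nearly equal size, and BTG3 (−0.21, limma adjusted p = 0.00772) differed less. BTG2 was the member that did not pass (−0.090, 95% interval −0.17 to −0.012, limma adjusted p = 0.0677), an interval that holds no difference larger than 0.17.

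The direct differences met the DMSO level in different ways. Of the 6 genes that rose under CCF642, ZFP36, ZFP36L1, BTG1 and BTG3 were also above DMSO under CCF642-34, by less. ZFP36L2 and ZC3H12A lay below DMSO under CCF642-34. TOB1 and TOB2 were called against DMSO for CCF642-34 and not for CCF642. At least 2-fold apart were 0 members, with 0.308% of all genes, and ZC3H12A was at this limit, with −1.004 when replicate 1 of CCF642 was left out and −1.07 when replicate 1 of CCF642-34 was left out. The call of BTG3 was lost without CCF642-34 replicate 1, and BTG2 was called lower without CCF642 replicate 2 (−0.14). BTG2 was also called lower after scaling by DESeq2's size factors, with which all 9 members passed.

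Levels of different genes were compared as CPM per kb of their longest coding transcript. With DMSO, BTG2 was highest at 232 CPM per kb, followed by ZFP36L2 (105), BTG1 (90.4), ZFP36 (58.9), BTG3 (37.6), TOB1 (31.0), ZC3H12A (20.3), ZFP36L1 (15.9) and TOB2 (13.3). No neighbours in this order overlapped between their 2 libraries. With CCF642, ZFP36 was the first at 198 CPM per kb and BTG2 the second at 184 CPM per kb. With CCF642-34, BTG2 was again the first (178 CPM per kb) and ZFP36 the second (118 CPM per kb). TOB2 was lowest in every group, at 12.0 CPM per kb under CCF642 and 9.44 CPM per kb under CCF642-34. Lengths came from GENCODE and may not be those of the annotation the authors used. The median coding transcript differed in length from the longest only for ZFP36L1 (3094 in place of 3190 bases). The same order with it is therefore no check on the choice of transcript.

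**Figure D3:**
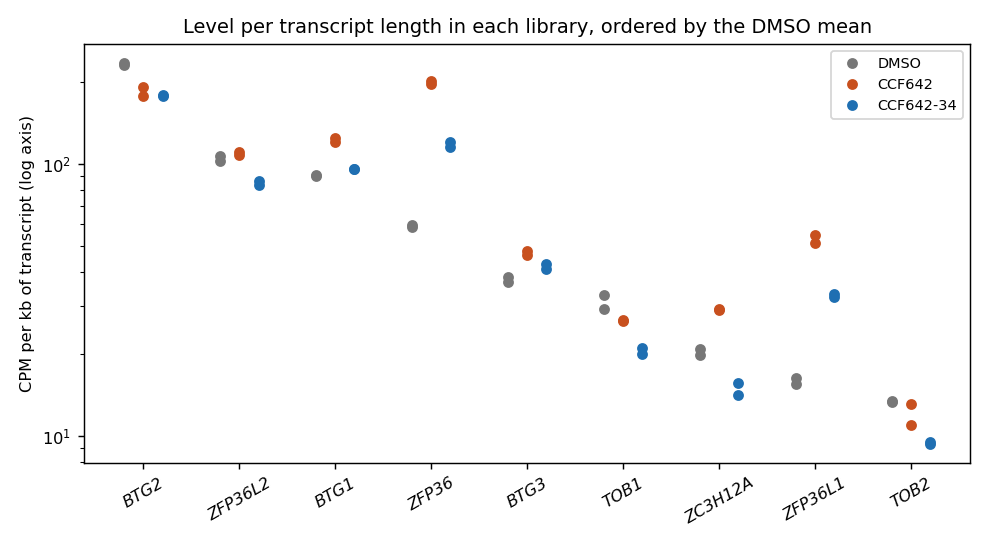
CPM per kb of the longest coding transcript (y axis, log scale) of the 9 genes (x axis, ordered by the DMSO mean); each point is a library. ZFP36 moves from the fourth place with DMSO (58.9) to the first under CCF642 (198), while BTG2 stays at the first or second place in every group.

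Reads of BTG1, BTG3 and TOB1 may include those of other transcripts, because antisense genes (AC025164.1, BTG3-AS1 and TOB1-AS1) and, for BTG1, LINC01619 on its own strand overlap their exons, and the sources used here do not say whether strand was used in counting. BTG1, BTG3 and TOB2 also have processed pseudogene copies (BTG1P1, BTG3P1 and TOB2P1). MIR6732 overlaps an exon of ZC3H12A. Of these 8 genes, 0 were listed.

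Related genes of mRNA decay are described by list, and every list gene said to have risen or fallen had a limma adjusted p under 0.05. The counts of all these lists, also chosen with earlier results of these data known, stand beside the shares of all genes. These were 31.8% higher and 31.3% lower under CCF642, and 29.7% higher and 27.9% lower under CCF642-34. Of 7 other genes of the Regnase, Roquin and BTG families, N4BP1 included, 5 were listed, with 3 higher and 1 lower for CCF642, and 2 higher and 1 lower under CCF642-34. RC3H1 (Roquin-1), which shares stem-loop targets with Regnase-1, rose from 69.3 CPM in DMSO to 115 CPM under CCF642 (log2 fold change 0.86) and to 89.9 CPM under CCF642-34 (0.46). ZC3H12C rose under CCF642 (0.76) and was at 0.21 under CCF642-34, N4BP1 rose with both (0.56 and 0.39), and ZC3H12B, at a low level, fell with both (−0.52 and −0.50).

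The deadenylases and poly(A) binding genes, with which these regulators work, had medians near 0. Of 18 listed genes, 7 were higher and 4 lower under CCF642, 6 were higher and 3 lower under CCF642-34, with medians of 0.055 and 0.062. CNOT3, a subunit of CCR4-NOT, rose with both compounds (0.75 and 0.57), and the deadenylase CNOT6L fell (−0.29 and −0.36). PAIP2B, an inhibitor of the poly(A) binding protein, fell by 0.83 under CCF642 and by 0.79 under CCF642-34, from a mean of 9.82 CPM. CNOT4 rose with both (0.52 and 0.23), and PAIP2 rose under CCF642-34 (0.31) and was at 0.053 under CCF642.

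In the list of decapping and 5′ to 3′ decay, 5 of 20 genes were higher and 11 lower under CCF642, and 5 were higher and 8 lower under CCF642-34. DCP1A, an activator of decapping, rose in both treatments (0.94 and 0.63), as did the exonuclease XRN1 (0.63 and 0.41). LSM3 (−0.54 and −0.40) and LSM6 (−0.96 and −0.60), of the ring that binds shortened tails, fell in both. Of 15 exosome and SKI genes, 5 were higher and 6 lower under CCF642, and 5 were higher and 3 lower under CCF642-34. EXOSC1 rose (0.83 and 0.91), and EXOSC2 (−0.81 and −0.65) and DIS3L (−0.59 and −0.56) fell. Of 14 genes of nonsense-mediated decay, 7 were higher and 1 lower under CCF642, and 4 were higher and 3 lower under CCF642-34. CASC3 rose in both (0.59 and 0.47), and SMG1, the kinase of UPF1, rose more under CCF642 (0.56) than under CCF642-34 (0.099), a direct difference of −0.46. No gene of these 3 lists was called with a log2 fold change of at least 1 in either direction. LSM6 was at a low level, with means of 13.4 CPM in DMSO and 5.84 CPM under CCF642. The 1 added to each value before the log makes the changes of such genes smaller.

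Among 13 other proteins that bind AU-rich or GU-rich elements, 4 were higher and 5 lower under CCF642, and 0 were higher and 6 lower under CCF642-34. KHSRP, which also promotes decay, fell from 426 CPM in DMSO to 293 CPM under CCF642 (−0.40) and 301 CPM under CCF642-34 (−0.41). PUM2 fell in both (−0.29 and −0.36), and CPEB2 rose under CCF642 (0.66) and was at −0.022 under CCF642-34. Of 19 kinases, phosphatases and partners of the members, 9 were higher and 7 lower under CCF642, and 7 were higher and 5 lower under CCF642-34. MAP2K3, a kinase that activates p38, rose from 122 CPM in DMSO to 227 CPM under CCF642 (1.02) and 182 CPM under CCF642-34 (0.65). MAPK14, p38 itself, whose pathway controls tristetraprolin by phosphorylation, fell from 111 CPM to 73.2 CPM (−0.46) and 80.9 CPM (−0.37). USP14 rose (0.74 and 0.59).

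The mRNAs known as textbook targets of ZFP36 proteins and Regnase-1 held the widest range. Of 21 listed targets, 15 were higher and 3 lower under CCF642 (median 0.79), and 11 were higher and 5 lower under CCF642-34 (median 0.31). The nonamer occurred in 9 of the 21, and in 9.38% of the 10881 listed genes with a coding transcript. ZFP36 proteins bind AU-rich elements, so a list of their known targets favours the nonamer, and its share is no result of these data. JUN, which with FOS forms AP-1, rose from 146 CPM in DMSO to 1104 CPM under CCF642 (3.05) and 554 CPM under CCF642-34 (2.01), and FOS rose from 5.80 CPM to 43.5 CPM under CCF642 (2.83) and 26.4 CPM under CCF642-34 (2.09). CDKN1A, the p21 cell cycle inhibitor, rose from 20.2 CPM in DMSO to 129 CPM under CCF642 (2.74) and 115 CPM under CCF642-34 (2.54). MYC fell from 459 CPM in DMSO to 101 CPM under CCF642 (−2.04) and 181 CPM under CCF642-34 (−1.25), CCND1, at a low level, fell with both (−0.77 and −0.60), and TNFAIP3 fell under CCF642-34 (−0.62) and was at 0.053 under CCF642. Compared directly, 2 targets were higher and 15 lower under CCF642-34 than under CCF642, where 15.9% of all genes were higher and 17.5% lower. TNF, IL6, IL10, CXCL8, CSF2, LIF and IER3 were not listed.

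**Figure D4:**
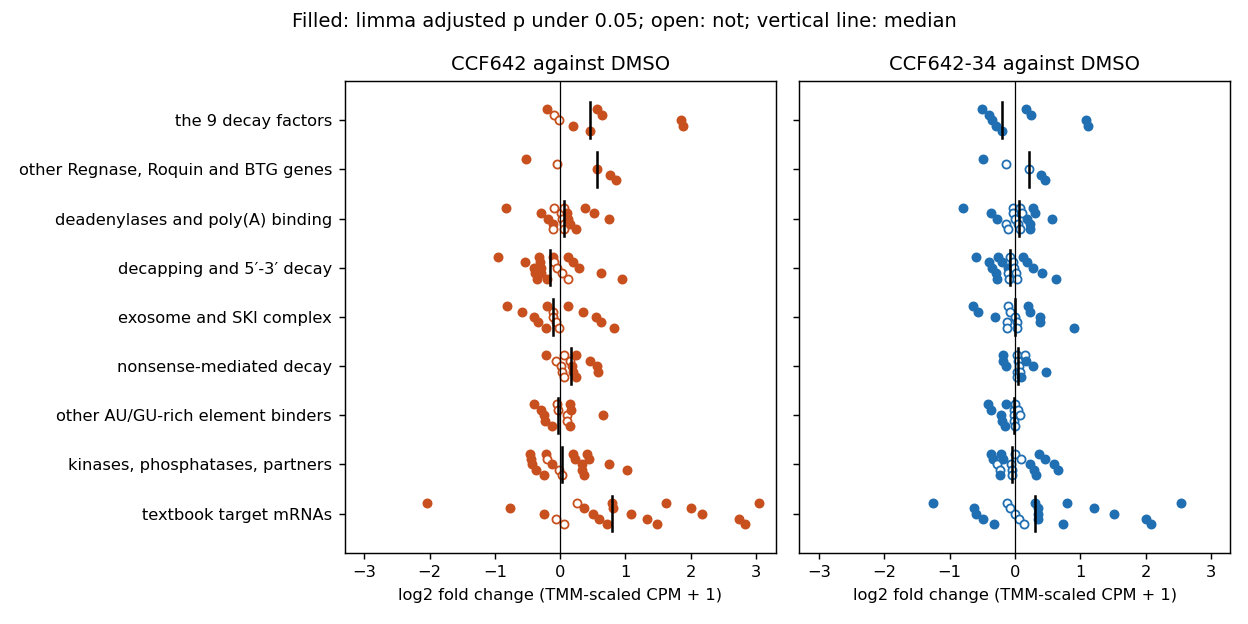
Log2 fold changes (x axis) of the 9 decay factors and of the genes of 8 related lists (y axis) under CCF642 (left) and CCF642-34 (right) against DMSO; filled points had a limma adjusted p under 0.05 and vertical lines are medians. The textbook targets spread from −2.04 to 3.05 under CCF642, and the deadenylase and poly(A) binding genes stay between −0.83 and 0.75.

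Genes most like each member were those with the smallest Euclidean distance between the log2 changes of the 4 treated libraries from the DMSO mean, among 8748 other genes with a mean of at least 8 CPM. EZR, which encodes the membrane linker ezrin, was near both ZFP36 (0.11) and ZFP36L1 (0.086), with log2 fold changes of 1.82 under CCF642 and 1.13 under CCF642-34. CSRNP1 (0.11) was the nearest to ZFP36, and TNFSF9 (0.15), the ligand of 4-1BB, was the second to ZFP36L1. MAN1C1 and KMT2D (0.050 and 0.054) were nearest to ZFP36L2, CTNNB1 and TPM4 (0.050 and 0.057) to BTG1, DNAJC11 and DNAJC9 (0.041 and 0.050) to BTG2, and MTMR3 and SUPT7L (0.035 and 0.047) to BTG3. CEP192 and MDN1 (both 0.076) were nearest to TOB1, and NDOR1 and ANKRD36C (both 0.13) to TOB2. ZC3H12A had the most distant neighbours of the 9, ITGB8 (0.22), an integrin subunit with changes of 0.77 and −0.32, and MACC1 (0.26).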

How the data were processed

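RNA was purified with the NucleoSpin kit, mRNA was enriched on oligo(dT) beads, and cDNA was made with random hexamers. Per the submitters' processing notes, STAR, edgeR 3.24.3, limma 3.38.3 and hg19 were used, and the counting tool and annotation are not given in the sources used here. The authors deposited CPM values, a unit read from the values: the listed genes hold 99.9% of each library's total. The lowest gene reaches 1.50 CPM in at least 1 library, so weakly expressed genes are not in the table. The table of the whole series equals the 6 single files.

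limma (3.58.1, R 4.3.3) was fitted to log2(TMM-scaled CPM + 1) with a variance trend over the 3 groups together, with 3 residual and 42.9 prior degrees of freedom. edgeR (4.0.16) gave the TMM factors. All tests were two-sided over 11048 genes. An exact permutation test of 2 against 2 libraries cannot go below p = 0.333 and was not used. All values were whole multiples of a single read (within 0.02 of a read), so reads could be recovered for edgeR and DESeq2 (1.42.0) as alternatives. Other alternatives were library size alone, DESeq2's size factors, pseudocounts of 0.1 and 4, a minimum mean of 5 CPM, a gene-wise linear model, the compared groups alone, a replicate block and fits without each library. Named genes are the members, the 2 largest increases and decreases called in each list and compound, and the 2 nearest genes in pattern, and not all are printed. The members and lists were chosen with earlier results of these data known. GENCODE release 29 and RefSeq sequences are on GRCh38 and were matched by symbol.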

Additional observations from a re-analysis of the deposited data

How the results depend on the processing

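Of the members' log2 fold changes under 16 alternatives each, 421 kept the direction and the side of the threshold, 7 lost a call, 3 gained one and 1 changed sign (TOB2 under CCF642, 0.10 without CCF642 replicate 2 and −0.15 without CCF642 replicate 1). Not all of these settings could change a direction. The gene-wise linear model, the replicate block and the minimum mean of 5 CPM reuse the main log2 fold change. Leaving out a library of the group not compared hardly moves it. With library size alone, 1 member in place of 2 was at least 2-fold changed under CCF642-34. Between the compounds, 1 member in place of 0 (ZC3H12A) was at least 2-fold apart with DESeq2's size factors, a pseudocount of 0.1, edgeR and DESeq2, and 0 to 1 in fits without a library. A gene-wise linear model, which shares no variance between genes, called 4106 genes in place of 6362 under CCF642-34, and between the compounds 738 in place of 3688 genes and 5 in place of 8 members, losing BTG3, TOB1 and TOB2 (adjusted p 0.0715, 0.0819 and 0.133). With it TOB2 was also lost under CCF642-34 (adjusted p = 0.0685). The gene-wise model keeps the log2 fold changes and differs only in the variance, with 3 residual degrees of freedom and no prior ones. What lies behind the spread of single genes was not tested.

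Replicate numbers are shared by the groups, but the labels tie them to nothing, and the replicate differences of the groups correlated across genes by −0.027, −0.058 and 0.070. With the replicate block, 7, 9 and 8 members were called, as without it, and 7012, 6420 and 3803 genes. Where a fit left out a library, the lone library was assumed to vary like the other groups. With 2 libraries a group no library could be tested as standing apart.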

Other observations

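Some mRNAs known as targets of Regnase-1 were compared with ZC3H12A after their values had been seen. REL, a subunit of NF-kB, had means of 5.88, 27.8 and 7.13 CPM in the DMSO, CCF642 and CCF642-34 libraries. NFKBIZ, an atypical IκB protein, was at 14.97, 35.7 and 18.2 CPM. Both were lower under CCF642-34 than under CCF642 (log2 fold change −1.87 and −0.98, limma adjusted p = 4.01e-16 and 1.27e-11), as was ZC3H12A. TFRC, the transferrin receptor, was at 219, 559 and 593 CPM, and its direct difference did not pass (0.041, limma adjusted p = 0.462). No relation between these genes and ZC3H12A was tested.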
